A study of Mus musculus with 8 samples.

Results

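In the dorsal striatum, 72 of 795 measured circRNAs, or 9.06%, were lower on every cocaine array than on every saline array and at least 2-fold lower on average. They were selected on the deposited log2 intensities of the same 8 arrays. A circRNA was taken when its highest cocaine value lay below its lowest saline value and when the cocaine mean was lower by 1 or more on the log2 scale, which is a 2-fold decrease. The size of the decrease and the lack of overlap were therefore fixed by the choice, and they are given as a description with no test. Without the criterion of size, the cocaine arrays lay below all saline arrays for 232 circRNAs, or 29.2% of those measured. The other 160 of these were lower by less than 2-fold, and 2 further circRNAs were at least 2-fold lower but overlapped between the groups.

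The arrays held RNA from the dorsal striatum of both hemispheres of male C57BL/6J mice, whose age is labelled as 8 weeks. In the cocaine group (n = 4 arrays), a nose-poke delivered an intravenous infusion of 0.75 mg/kg cocaine, and the schedule ran until responding was stable, usually for 10 to 12 days. In the control group (n = 4 arrays), mice with the same surgery and schedule received saline. According to the labels, the brains were taken directly after the last session. Each group has 4 numbered replicates in the labels, and the study calls them subjects, while the design text of the series speaks of 3 mice. The spread between arrays is read here as that between samples. The tissue was a mixture of neurons, glia and vessel cells, so fewer cells of a type and less RNA per cell cannot be told apart.

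A circRNA arises by back-splicing, when the end of an exon is joined to the start of the same or an earlier exon. The closed circle has no free end, which makes it resistant to RNase R, the exonuclease used here to remove linear RNA before labeling. Such circles are long-lived, build up in neurons with age, and in a few known cases bind miRNAs. Each value below is the brightness of an array probe on the log2 scale. Probes differ in how well they hybridize, so brightness orders signals and not the abundance of different circRNAs. The probes are named by their array identifiers, because the files used here do not pair them with circRNA names, host genes, sequences or chromosomal positions. For the same reason the tissue could not be checked against striatal marker genes.

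The level of the arrays was compared on the 723 circRNAs that remained after the lowered ones were set aside. The median of their log2 intensities, taken array by array, reached 8.04, 7.98, 7.63 and 7.65 in cocaine arrays 1 to 4. In saline arrays 1 to 4 it reached 7.84, 7.78, 7.83 and 7.77. Cocaine arrays 1 and 2 thus lay above all saline arrays in this level, and cocaine arrays 3 and 4 lay below them. The difference of the group means was 0.02, with p = 0.743 by an exact permutation test (two-sided, 70 assignments). The smallest p that 4 arrays against 4 allow is 0.0286. Because the rule had removed 72 lowered circRNAs from this set, the difference was also taken over all 795 circRNAs, where it was -0.068 with an exact permutation p of 0.486. The authors had quantile-normalized the intensities, which draws the levels of the arrays together. Neither test can therefore show whether the overall level of circRNAs changed with cocaine. The 72 lowered circRNAs had medians of 7.26, 7.46, 7.09 and 7.16 in the cocaine group, in the order of the arrays, and of 8.27, 8.49, 8.24 and 8.30 in the control group. In rank, their median stood between the percentiles 56.6 and 61.5 of the saline arrays and between 37.5 and 41.3 of the cocaine arrays.

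Most of the 72 decreases were close to the threshold. The median difference, cocaine minus saline, was -1.16 on the log2 scale, which is 2.23-fold, and the quartiles were -1.29 and -1.07. Between 1 and 1.1 lower on the log2 scale there were 24 circRNAs, between 1.1 and 1.25 there were 25, and between 1.25 and 1.5 there were 18. Only 5 circRNAs, or 3 below 4-fold and 2 at 4-fold or more, were lower by 1.5 or more. The standard error of the difference, from the pooled spread of the arrays, had a median of 0.18 and ranged from 0.04 to 0.52.

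ASCRMP001351 showed the deepest decrease. It read 9.82, 9.65, 9.27 and 9.83 with cocaine, from array 1 to array 4, and 11.90, 12.10, 12.20 and 12.04 with saline in the same order, which holds for all values below. Its lowest saline value was 2.07 above its highest cocaine value, the widest separation among the 72, and its mean was 5.35-fold lower. All 4 cocaine arrays shared the decrease, with a range of 0.56 between them.

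ASCRMP000054 had the second deepest decrease, a 4.08-fold lower mean, but it was uneven. Its cocaine values were 10.60, 10.96, 11.56 and 12.09, and its saline values were 13.29, 13.85, 12.93 and 13.26. Relative to the saline mean, it was 6.65-fold lower on cocaine array 1 and 2.36-fold lower on cocaine array 4. The groups were separated by 0.83.

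The next 2 by depth were dim probes with scattered cocaine values. ASCRMP001162 read 4.05, 6.13, 4.43 and 5.84 with cocaine and 6.97, 6.91, 6.74 and 6.70 with saline. Its mean was lower by 1.72, with a standard error of 0.52, the largest of all 72. Cocaine arrays 1 and 3 were low, at -2.78 and -2.40 from the saline mean, whereas cocaine arrays 2 and 4 stood at -0.70 and -0.99. ASCRMP001419 read 4.93, 5.74, 6.56 and 6.11 with cocaine against 7.47, 7.30, 7.47 and 7.30 with saline, so that its saline arrays differed by 0.17 and its cocaine arrays by 1.63.

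ASCRMP000674 combined a deep with a fairly even decrease. Its values were 8.51, 8.66, 8.99 and 9.21 on the cocaine arrays and 10.39, 10.53, 10.24 and 10.28 on the saline arrays, a 2.87-fold difference with a standard error of 0.17. ASCRMP001671, at 5.44, 6.56, 6.80 and 6.77 against 7.76, 8.16, 7.56 and 7.81, had a 2.70-fold lower mean. On cocaine array 1 it was 5.23-fold below the saline mean, and on the remaining cocaine arrays 2.04-fold to 2.41-fold.

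At the threshold itself, inclusion turned on small differences. ASCRMP000100, ASCRMP001486 and ASCRMP001287 were the nearest inside, with differences of -1.007, -1.008 and -1.008. ASCRMP001534, at -0.999, ASCRMP000295, at -0.996, and ASCRMP000585, at -0.990, were the nearest outside among circRNAs without overlap. The standard errors of these 6 differences lay between 0.10 and 0.37, wider than the distance of each from the threshold. The 2 circRNAs left out for overlap were bright and variable. ASCRMP000471 read 10.21, 11.23, 11.25 and 10.80 with cocaine and 11.14, 12.58, 11.31 and 12.51 with saline. ASCRMP001468 read 8.995, 9.008, 12.83 and 11.49 with cocaine and 12.34, 11.72, 11.46 and 11.14 with saline, so that its mean difference of -1.09 came from cocaine arrays 1 and 2.

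A mean decrease of 2-fold did not mean a 2-fold decrease on every array. Measured against the saline mean, 11 of the 72 circRNAs were at least 2-fold lower on all 4 cocaine arrays, 37 on 3 arrays, 22 on 2 arrays and 2 on 1 array. Cocaine array 1 was at least 2-fold lower for 63 of the 72, array 2 for 41, array 3 for 59 and array 4 for 38. Of all circRNAs, 17.7%, 8.81%, 18.2% and 9.06% were at least 2-fold lower on arrays 1 to 4, so arrays 1 and 3 stood above arrays 2 and 4 in the whole table as well. The median difference of the members from their saline means was -1.32, -1.06, -1.21 and -1.01 in this order. With each array centred on its median it was -1.41, -1.15, -0.98 and -0.79, so the order of the arrays depends on the level set for each. As deposited, the shallowest single difference among all members was -0.32, on cocaine array 2.

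The 11 circRNAs lower by at least 2-fold on every cocaine array had saline means from 7.03 to 13.33, none of them in the dimmest group of members between 6 and 7, and included some decreases close to the threshold. Their mean differences ranged from -2.42 to -1.06. For 4 of these, every cocaine array was at least 2-fold below every saline array. These were ASCRMP001351, ASCRMP000674, ASCRMP001657 and ASCRMP000140, of which the last was singled out after its values were seen. ASCRMP001657 read 8.20, 8.39, 8.33 and 8.60 with cocaine and 9.74, 9.86, 9.68 and 9.79 with saline, a 2.61-fold lower mean with a separation of 1.08. ASCRMP000140 read 6.54, 6.84, 6.51 and 6.58 against 8.22, 8.05, 8.05 and 7.87, a 2.69-fold lower mean.

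The cocaine arrays of a lowered circRNA differed from each other by a median of 0.68 on the log2 scale, and its saline arrays by 0.32. The range was wider among the cocaine than among the saline arrays for 64 of the 72, or 88.9%. The same held for 79.4% of the other circRNAs, whose median ranges were 0.83 and 0.47. Lack of overlap bounds the spread of a member, so these figures were not compared with a test. The range over the cocaine arrays was under 0.5 for 21 members, from 0.5 to 1 for 29, from 1 to 1.5 for 17 and above that for 5.

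The most even decrease was that of ASCRMP001180, which was also the brightest of the 72. It read 13.64, 13.74, 13.65 and 13.74 on the cocaine arrays and 14.63, 14.73, 14.71 and 14.77 on the saline arrays. The mean was 2.02-fold lower, close to the threshold, but the standard error of 0.04 was the smallest of all members. ASCRMP001638, at 7.97, 8.07, 7.94 and 8.07 against 8.97, 9.15, 9.003 and 9.16, was 2.08-fold lower with a range of 0.13 over the cocaine arrays.

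The other members among the 4 most even were ASCRMP000350, a dimmer probe, and ASCRMP001698. ASCRMP000350 read 6.18, 6.31, 6.21 and 6.16 with cocaine and 7.30, 7.20, 7.24 and 7.18 with saline, a 2.02-fold lower mean. ASCRMP001698 read 8.07, 8.16, 7.88 and 8.10 with cocaine and 9.17, 9.34, 9.13 and 9.20 with saline, a 2.23-fold lower mean. In each of these 4 probes, the range over the cocaine arrays was 0.27 or less, and the separation of the groups was 0.87 or more.

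The most uneven decreases belonged to dim probes. Besides ASCRMP001162 and ASCRMP001419, ASCRMP000998 read 4.33, 6.32, 5.15 and 5.76 with cocaine and 6.48, 6.66, 6.56 and 6.84 with saline. On cocaine array 2 it differed from the saline mean by only -0.32, and the groups were separated by 0.15. ASCRMP001358 read 5.19, 5.86, 4.16 and 5.75 against 6.44, 6.88, 6.69 and 6.39, with its low value on cocaine array 3. The narrowest separation of all, 0.08, was instead found in a bright probe, ASCRMP001318, which read 10.42, 10.48, 11.12 and 11.59 with cocaine and 11.95, 12.45, 11.67 and 12.11 with saline.

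By brightness in the control group, the 72 circRNAs lay mostly in the middle and upper range. Their saline means ran from 6.57 to 14.71 with a median of 8.34, at the percentile 59.6 of all circRNAs, and 42 of the 72 were above the median circRNA. When all circRNAs were ordered by the saline mean and cut into 5 groups of 159, from the dimmest to the brightest, the members numbered 5, 18, 14, 22 and 13, or 3.14%, 11.3%, 8.81%, 13.8% and 8.18%. None had a saline mean in the lowest 10% of circRNAs. The saline mean enters the rule, so this order is not independent of the choice. Whether dim probes had less room to fall was not tested. When the groups were formed on the mean over all 8 arrays, the members numbered 16, 15, 10, 21 and 10. The other circRNAs of those groups had median differences of -0.20, -0.18, 0.01, 0.07 and 0.06.

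Depth varied little with brightness, and evenness varied more. The rule cuts depth at the threshold and most members lay close to it, so depth had little room to vary. The 2 were therefore not compared with a test. The median difference was -1.25 among the 11 members with a saline mean between 6 and 7, -1.25 among the 19 between 7 and 8, -1.13 in each of the groups of 13 and 15 between 8 and 10, and -1.10 among the 8 between 10 and 11. The 6 members above that had a median of -1.22. The median range over the cocaine arrays was 1.096, 0.90, 0.43, 0.49, 0.70 and 0.82 in the same order. These medians were smallest between 8 and 10, although the most even single member, ASCRMP001180, was the brightest. Scatter also varied with brightness outside the 72. In the 5 groups ordered by the saline mean, the median range over the cocaine arrays was 1.03, 0.89, 0.79, 0.66 and 0.74 for the other circRNAs and 1.55, 0.94, 0.66, 0.51 and 0.69 for the members.

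At the dim end, the cocaine values approached the bottom of the arrays. In 25 of the 72 circRNAs, at least 1 cocaine value was in the lowest 10% of its array, and in 7 all 4 were, whereas no saline value of any member was. The rule places every saline value of a member above its cocaine values, so this contrast is partly fixed by the choice. By array, 18, 13, 19 and 15 members lay there on cocaine arrays 1 to 4. ASCRMP001087, the dimmest with saline, read 4.75, 5.66, 5.75 and 5.84 with cocaine and 6.67, 6.69, 6.37 and 6.56 with saline. ASCRMP001436 read 5.27, 5.51, 5.51 and 5.77 against 6.78, 6.47, 6.66 and 6.46. The background level of each array was not used here, and its part in these decreases was not tested. Nor was it tested whether dim members passed the background filter of the authors through their saline arrays alone. At the bright end, the highest member value was 14.77, while the brightest circRNA of each array stood at 15.96 or more.

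On the linear scale, the 72 circRNAs carried 5.10%, 6.01%, 4.90% and 5.38% of the summed signal of all circRNAs on saline arrays 1 to 4. On cocaine arrays 1 to 4 they carried 2.01%, 2.21%, 2.41% and 2.84%. The 3 brightest members, ASCRMP001180, ASCRMP000054 and ASCRMP001351, made up 49.4% to 51.4% of this signal on the saline arrays and 45.0% to 48.9% on the cocaine arrays. The groups did not overlap in these shares. The choice required no overlap in the intensity of each member, so the lower share of the 72 follows largely from it. It set no such condition on the share of the 3 brightest among the members, and that difference was not tested.

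To see the decrease on an array that had no part in the choice, the rule was applied without that array. The arrays of the other group, which served as the reference, did take part in the choice, and all arrays had been normalized together. The shares below therefore still carry the selection on the side of the reference. Without cocaine arrays 1, 2, 3 and 4 it took 62, 89, 73 and 86 circRNAs. On the array left out, 62, 88, 72 and 86 of these lay below every saline array. Among all 795 circRNAs, 47.8%, 45.5%, 47.4% and 45.9% lay below every saline array on cocaine arrays 1 to 4, so a low position was common on each array. Of the circRNAs taken, 72.6%, 43.8%, 67.1% and 40.7% were at least 2-fold below the saline mean on the array left out, against the 17.7%, 8.81%, 18.2% and 9.06% of all circRNAs given above. Their median differences on that array were -1.20, -0.95, -1.13 and -0.96, while those of the circRNAs not taken were -0.07, -0.02, -0.12 and -0.10.

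When a saline array was left out, 83, 64, 80 and 72 circRNAs were taken without saline arrays 1 to 4, and 80, 64, 80 and 71 of them lay above every cocaine array on the array left out. Of all circRNAs, 40.3%, 39.5%, 36.5% and 39.0% did so on saline arrays 1 to 4. The median difference on the array left out was -1.09, -1.30, -1.03 and -1.15. The decrease was deepest against saline array 2 and shallowest against saline array 3. Arrays of one group share their reference, so these 8 results are not independent of each other.

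Within the control group, most of the 72 circRNAs shared a leaning that the rule did not ask for, and some other circRNAs shared it too. On saline array 2, 60 of them, or 83.3%, were above their own saline mean, and on saline array 3 only 16, or 22.2%, were. Among the other circRNAs, 47.7% were above their mean on saline array 2 and 52.4% on saline array 3. Of the 49 others low on cocaine arrays 1 and 3 and high on 2 and 4, 39 and 6 were. Of the 144 low on cocaine arrays 1 and 2 and high on 3 and 4, 80 and 46 were. The 241 with the reverse of the latter went the other way, with 75 and 175. The sizes were small, with median deviations of 0.12 and -0.09 for the members. On saline arrays 1 and 4, 31 and 37 of the 72 were above the mean. These are counts over circRNAs of the same arrays, which are not independent replicates.

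Within the cocaine group, 24, 44, 24 and 50 of the 72 were above their own cocaine mean on arrays 1 to 4, or 33.3%, 61.1%, 33.3% and 69.4%. The other circRNAs gave 56.8%, 61.0%, 40.0% and 45.9%. The lowest of the cocaine values came from array 1 in 36 members, array 3 in 24, array 4 in 9 and array 2 in 3. Among the other circRNAs, array 1 was the lowest for 22.8% and array 3 for 36.1%. The first component of the deviations from the group means held 43.8% of the within-group variance of the members. It set cocaine array 1 against cocaine array 4 most strongly. For the other circRNAs, the first component held 62.2% and set cocaine arrays 1 and 2 against cocaine arrays 3 and 4. When each array was centred on the median of the other circRNAs, their first component held 61.2% with the same division of the arrays. That of the members held 64.2%, with weights of 0.68, 0.17, -0.26 and -0.59 on cocaine arrays 1 to 4. The other circRNAs had weights of 0.52, 0.45, -0.57 and -0.40. Arrays 1 and 2 thus stood against arrays 3 and 4 in both sets, with arrays 1 and 4 the strongest for the members.

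Patterns of high and low cocaine arrays, relative to each circRNA's own cocaine mean, sorted 45 of the 72 into 3 families. All 3 patterns also occurred among the other circRNAs, so a family here is a shared pattern and not a group particular to the members. In the first family, 17 circRNAs were high on cocaine arrays 2 and 4 and low on arrays 1 and 3. This pattern made up 23.6% of the members and 6.78% of the other circRNAs. Relative to the saline mean, cocaine arrays 1 to 4 had medians of -1.35, -0.91, -1.40 and -0.97. On the saline arrays, 12 of the 17 were likewise high on arrays 2 and 4 and low on arrays 1 and 3, a saline pattern shown by 28 of all 72 members and by 20.1% of the other circRNAs. Among the 49 other circRNAs with the same cocaine pattern, 22 showed it, and these shares were not tested against each other. ASCRMP001162, ASCRMP000998, ASCRMP001638, ASCRMP001657 and the brightest member, ASCRMP001180, belonged to this family, whose saline means ran from 6.60 to 14.71.

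In the second family, 16 circRNAs were low on cocaine arrays 1 and 2 and high on arrays 3 and 4, or 22.2% of the members against 19.9% of the other circRNAs. Here the medians were -1.64, -1.43, -0.97 and -0.80. This family was the brightest, with a median saline mean of 10.06 and values from 6.76 to 13.33. The pattern was also the brightest of the 3 among the other circRNAs, with a median of 8.68. There the pattern of the first family had 7.89 and the reverse pattern 7.75. The second family held ASCRMP000054, ASCRMP001419, ASCRMP000674 and ASCRMP001318. On saline array 2, 14 of the 16 were above their saline mean, and on saline array 3, 2 were.

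The third family was the reverse, with 12 circRNAs high on cocaine arrays 1 and 2 and low on arrays 3 and 4. It made up 16.7% of the members and 33.3% of the other circRNAs. Relative to the saline mean, the medians were -1.07, -0.91, -1.499 and -1.34. Its saline means were confined to 6.93 to 8.86, a narrower range than in the other families, and the separation of its groups was the widest of the 3, with a median of 0.72. Cocaine arrays 3 and 4 were also lower in the level of all other circRNAs. When each array was centred on the median of the circRNAs outside the 72, 1 member, or 1.39%, showed this pattern. The first was then shown by 14, or 19.4%, and the second by 35, or 48.6%. Among the other circRNAs, the shares after centring were 19.4% for this pattern, 7.19% for the first and 39.6% for the second. The families thus depend on the level set for each array.

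The 160 circRNAs that were lower without overlap but by less than 2-fold had a median difference of -0.74, a median saline mean of 7.85 and a median range of 0.54 over the cocaine arrays. Cocaine array 1 was the lowest for 54 of these 160 and cocaine array 3 for 66, against 36 and 24 of the 72. The opposite set, higher on every cocaine array and at least 2-fold higher on average, held 16 circRNAs. It was dimmer, with a median saline mean of 6.25, and less even, with a median range of 1.49 over the cocaine arrays. In that set the median difference was 2.14, 1.70, 1.11 and 0.96 on cocaine arrays 1 to 4. As deposited, the decrease of the 72 was thus spread more equally over the arrays, but the sets were chosen on these values and the difference was not tested. With the arrays centred on their medians, the median difference of the 72 went from -1.41 on cocaine array 1 to -0.79 on cocaine array 4. The opposite set is not given on that scale.

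The number of circRNAs past the threshold depended on how the arrays were scaled. As deposited, the 795 circRNAs had a median difference of -0.14. Centring the arrays on their medians gave -0.07, repeating the quantile normalization gave 0.004, and cyclic loess gave 0.05. Under the 3 other scalings, the rule took 52, 46 and 29 circRNAs, all of them among the 72, and 26 were taken under every scaling. The median difference of the 72 was -1.16, -1.09, -1.05 and -0.97 in the same order. Relative to the median of all circRNAs, it was -1.02, -1.02, -1.05 and -1.02. All 72 had a lower mean with cocaine under each of these scalings, and 66 showed no overlap under any of the 3 others. The 72 were chosen for a decrease without overlap on the same arrays, so both counts are largely fixed by the choice. As deposited, 29.2% of all circRNAs were lower without overlap, and this share is not given here for the other scalings. Over the 4 scalings, ASCRMP001351 ranged from -2.42 to -2.35 and ASCRMP000054 from -2.03 to -1.93. ASCRMP001162, a dim probe, ranged from -1.72 to -1.29.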

How the data were processed

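The authors digested striatal RNA with RNase R, labelled it with Cy3, hybridized it to a one-colour mouse circRNA array, quantile-normalized the extracted intensities and filtered out circRNAs whose flags did not exceed 2 times the background. For spot averaging and background subtraction, the method is not given in the sources used here. They deposited log2 intensities (the authors' own scale) for 795 circRNAs on 8 arrays, whose columns were matched to samples by their labels. A further deposited sheet held only a title. Signal over background was not used here, and the number of arrays limits the precision.

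Group means, differences, ranges and deviations were computed in Python 3.11.15 with pandas 2.3.3, and the exact permutation test with scipy 1.17.1. Other scalings used limma 3.58.1 in R 4.3.3. The code of the rule was tested on simulated data with planted decreases and independent noise of a common spread. That noise lacks the shared deviations of the real arrays, so the simulation says nothing about the members. The alternatives were those scalings, group medians, filters on dim circRNAs, same-numbered pairs and leaving out each array. Members and measures were chosen with earlier results of these data known. Named probes are the 6 deepest members, the 4 most and 4 least even, the 3 brightest and dimmest, the 2 with the widest and narrowest separation, and the 3 nearest to each side of the threshold, with those excluded for overlap.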

Additional observations from a re-analysis of the deposited data

Results flagged for a closer look

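Among 24 named probes and the array levels, 2 of 50 groups of 4 arrays held a value far from the others, and chance gives about 1 in 20. ASCRMP001087 read 4.75 on cocaine array 1, while its other cocaine values were 5.66 to 5.84. ASCRMP000295, a circRNA just outside the threshold, read 7.91 on saline array 2, while its other saline values were 7.59 to 7.63. Over all 72 lowered circRNAs, 3 had such a value on a cocaine array and 1 on a saline array.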

How the results depend on the processing

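The count of 72 moved to 46 after a second quantile normalization, 29 after cyclic loess and 35 among circRNAs above the median intensity, and lay between 62 and 89 with 1 array left out. In the last case 54 to 72 of the members were retained, the fewest without cocaine array 1. It was 74 with group medians, 51 above the lower quartile of intensity and 78 when arrays were centred on the circRNAs outside the 72, an alternative chosen after seeing the data. With 1 array left out, the median difference was -1.21 to -1.09, the range over the cocaine arrays 0.52 to 0.68, the separation 0.65 to 0.76 and the saline percentile 58.1 to 60.2. This percentile was 54.9 above the median intensity. The level of the other circRNAs, with a difference of 0.019, was -0.068 over every circRNA and -0.0381 with means, and -0.0521 to 0.0826 with 1 array left out (exact permutation p between 0.343 and 0.971), turning negative without cocaine array 1 (-0.0521) or 2 (-0.0338). The mean share of left-out cocaine arrays below the saline range was 99.4%, and 96.8% with median centring. Of all circRNAs, 50.7%, 49.8%, 38.1% and 35.0% lay below that range on cocaine arrays 1 to 4 with median centring. Of the circRNAs taken with that centring, 81.8%, 58.8%, 41.5% and 23.1% were at least 2-fold below the saline mean on the array left out. The first within-group component held 64.2% after centring on the circRNAs outside the 72. Group medians gave no range or separation, and the pairing no saline percentile. With the replicate number as a block, the rule took 73 circRNAs, the 72 among them. The deviations of same-numbered arrays correlated at -0.26 to -0.0031 over all circRNAs, so the number gave no sign of pairs. Those of differently numbered arrays correlated at -0.56 to 0.58. Between cocaine arrays 1 to 4 and saline arrays 3, 4, 1 and 2 the values were 0.58, 0.57, 0.47 and 0.43. What these arrays share was not tested. The permutation test treats the arrays as exchangeable and takes no account of it.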
